A study of Capra hircus with 2 samples.

Results

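The miR-30 family is a group of microRNAs (miRNAs, small RNAs that pair with messenger RNAs and lower their output) that share the bases by which they recognise their targets. Its members were taken by name from the deposited list of known miRNAs of goat endometrium: every name whose part after miR- is 30a, 30b, 30c, 30d, 30e or 30f, whatever the species prefix, the arm or the note on its ends. This gave 11 of 587 distinct names, listed in 12 of 641 entries with 10 of 555 distinct sequences. Names were found for 5 of the 6 letters, and miR-30f was not analysed here.

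The study compared endometrium before and at the phase in which the uterus can accept an embryo. The animals of both phases were multiparous Xinong Saanen dairy goats aged 24 months with synchronized oestrus that had mated naturally, and tissue came from the front wall of the uterine cavity. The pre-receptive phase (P) was day 5 of gestation and the receptive phase (R) was day 15. In each phase the RNA of 9 goats was pooled into 3 mixtures and sequenced in 3 runs, and 1 value per miRNA and phase, called its library here, was deposited, so there were no replicates and the spread between goats could not be measured.

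A miRNA hairpin has a 5p and a 3p arm, and the arm that is loaded into an Argonaute protein finds its targets mainly through the seed, bases 2 to 8. The 5p arms of miR-30 are usually the abundant ones; in other tissues they are known to lower connective tissue growth factor and the mesenchymal factor SNAI1, to act on the Notch ligand DLL4 in vessels, and to be abundant in epithelia and heart muscle. In human endometrium miR-30b and miR-30d have been described as higher in the receptive phase, and miR-30d has been found in the uterine fluid.

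The following sequences are those that set the members apart. The first 3 are 5p forms, in which the capitals at bases 2 to 8 mark the shared seed and a capital at the end marks a last base that differs from the known or the longer form. The names follow the authors' scheme, in which the prefix is the species of the best matching known miRNA (oar sheep, bta cow, cgr Chinese hamster, hsa human), R+3 means 3 extra bases on the right, and a note such as 1ss23CA means 1 substitution.
oar-miR-30c_R+3: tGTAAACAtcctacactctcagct
oar-miR-30c_R+2: tGTAAACAtcctacactctcagT
bta-miR-30e-5p_R-1_1ss23CA and cgr-miR-30e-5p_1ss23CA: tGTAAACAtccttgactggaagA
Against the known sequence, counted from 1 at its 5′ end, the miR-30e-5p form has C23A. Against the longer miR-30c form the shorter has C23T. The seed of these forms and of miR-30b was found in 5 of the 587 known names, all of them miR-30, and in 0 other known names and 0 of 621 candidate miRNAs of the study.

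The 3p forms fall into groups of another seed. The names miR-30a-3p, miR-30d-3p and miR-30e-3p share 1 seed, the hsa-miR-30b-3p name and the listed hsa-miR-30c-2-3p form share another, and hsa-miR-30c-1-3p has a seed of its own among the names. The hsa-miR-30c-2-3p form has A8G against its known sequence, a change inside the seed. Of the next lines, those of miR-30a-3p and miR-30e-3p are shown because 1 of these names stands over the sequence of the other, and the miR-30c lines because they are named for different hairpins and differ in the seed; capitals mark bases 2 to 8, base 18 in the known miR-30a-3p, and a last base that differs from known miR-30e-3p.
known oar-miR-30a-3p: cTTTCAGTcggatgtttGcag
known cgr-miR-30e-3p: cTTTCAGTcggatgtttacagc
oar-miR-30a-3p_R+1_1ss18GA, first entry: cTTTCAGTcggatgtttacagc
oar-miR-30a-3p_R+1_1ss18GA, second entry, and cgr-miR-30e-3p_1ss22CT: cTTTCAGTcggatgtttacagT
hsa-miR-30c-1-3p: cTGGGAGAgggttgtttactcc
hsa-miR-30c-2-3p_1ss8AG: cTGGGAGGaggctgtttactct
The first entry named miR-30a-3p has G18A against the known miR-30a-3p and no difference from the known miR-30e-3p. The second entry has C22T against the known miR-30e-3p, as has the entry named miR-30e-3p. By sequence, then, all 3 entries are miR-30e-3p or a form of it, and no entry holds the known miR-30a-3p sequence. Each listed sequence is the best scoring read of a cluster, so that the reads behind a value need not all end in the same way.

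Levels are given as normalized expression (NE). The methods of the study define NE relative to the clean reads of a library, which would make a read worth more in R, the library with fewer clean reads. The deposited values behave otherwise, as the reads of an entry divided by 1 size factor per library that makes a read worth less in R. Every direction on the deposited scale rests on these factors, and on the letters R and P of the column headings, by which the values were matched to the phases. From the steps between the values, the worth of 1 read is 0.860 NE for R and 1.16 NE for P, and the listed known miRNAs sum to 1904242 reads in R and 4046632 in P. All 11 names passed the filter on low values, which asks for reads from each phase and NE of 1 or more in at least 1 of the libraries, as did 438 of the 587 names. Intervals are 95% and cover counting error only, because there were no replicates. They treat reads as independent, which reads after PCR without molecular identifiers are not, so they may be too narrow. They compare these 2 libraries and not the phases.

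Of the miR-30 names analysed, the longer miR-30c form and miR-30b, both of the 5p arm, were the most abundant in both libraries. The longer miR-30c form had 5225 NE in R and 3109 NE in P, rank 31 and rank 47 among the 587 names by the value of 1 entry. miR-30b had 4776 NE in R and 2945 NE in P, rank 33 and rank 48. Both were thus higher in R, on the deposited scale and under the other scalings tried, and they stood next to each other or nearly so in the order of levels. R to P, the log2 ratio was 0.75 (0.68 to 0.82) for the longer miR-30c form and 0.70 (0.63 to 0.77) for miR-30b.

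These forms share their first 18 bases, and the shortest listed sequences have 18. Both hold a fraction of a read in each library (6076.5 and 2673.5 reads for miR-30c, 5554.5 and 2532.5 for miR-30b), so that some reads were divided among entries that they match equally well. How many reads the pair shares was not tested. The log2 ratio of miR-30b minus that of the longer miR-30c form was -0.05 (-0.15 to 0.04), or -0.01 (-0.10 to 0.08) with both miR-30c-5p forms summed, and no difference was detectable at this depth.

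miR-30e-5p went the other way on the deposited scale. It is listed under a cow and a hamster name with 1 sequence, each with 736 NE in R and 1149 NE in P (855.5 and 988 reads). The log2 ratio was -0.64 (-0.78 to -0.51), and it became 0.14 when reads were scaled to the clean reads of each library, 0.88 when scaled to the listed reads and 0.43 when the most abundant name was left out of these. The direction of miR-30e-5p by itself therefore depended on the scaling. The order within the family did not: miR-30e-5p minus miR-30c-5p, a ratio within each library from which the scaling cancels, was -1.35 on the log2 scale (-1.46 to -1.24). The pair was chosen with its values known.

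The shorter miR-30c form, with another last base, had 186 NE in R and 204.7 NE in P. Its log2 ratio of -0.14 (-0.43 to 0.16) includes 0, and was 0.64, 1.38 and 0.94 under the same 3 scalings. It made up 3.43% (3.00% to 3.91%) of the miR-30c-5p reads in R and 6.18% (5.32% to 7.12%) in P. Shorter minus longer form was -0.89 (-1.19 to -0.59) on the log2 scale.

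**Figure D1:**
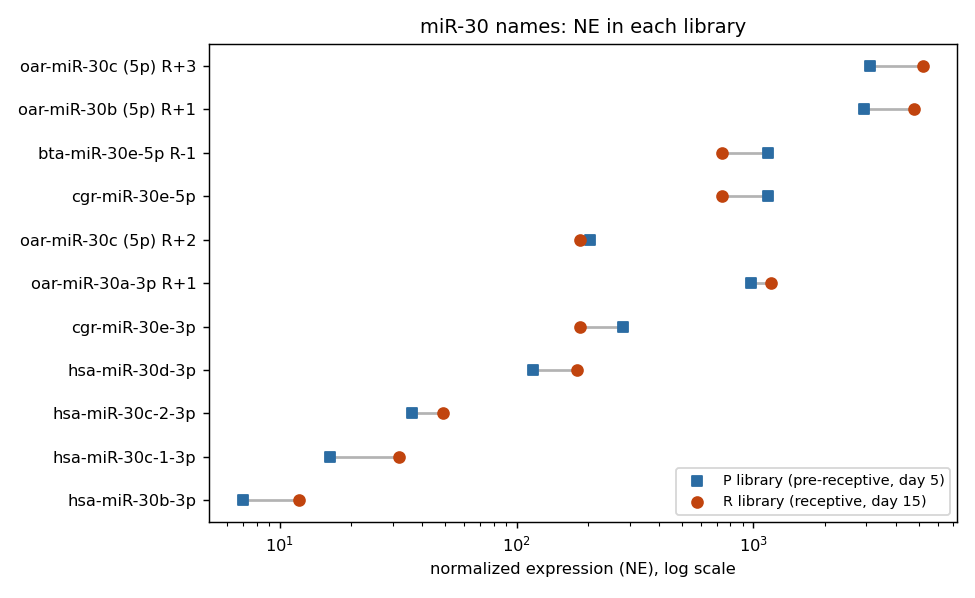
NE (log axis) of the 11 miR-30 names in the R library (circles) and the P library (squares), 5p names above 3p names, 1 value per library and no replicates. The circle lies right of the square for 7 names and left of it for both miR-30e-5p names, the shorter miR-30c form and miR-30e-3p, whose circles would lie right of the squares if reads were scaled to clean or listed reads.

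Among the 3p names, the strands usually present at lower levels, the one named miR-30a-3p was the most abundant. Each of its 2 entries had 1187 NE in R and 981 NE in P (1380.5 and 843.5 reads), rank 72 and rank 71 by the value of 1 entry, or rank 52 and rank 57 with the entries of each name summed. Its log2 ratio was 0.28 (0.19 to 0.36). The name miR-30e-3p had 185 NE in R and 282 NE in P, a log2 ratio of -0.61 (-0.88 to -0.34) that turned to 0.17, 0.91 and 0.47 when reads were scaled to clean reads, to listed reads and to listed reads without the most abundant name. The same sequence therefore stands under both of these names with values that move in opposite directions on the deposited scale. The difference in log2 ratio, miR-30e-3p minus miR-30a-3p by name, was -0.88 (-1.17 to -0.60) whatever the scaling.

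miR-30d was seen only through its 3p arm here, with 179 NE in R and 117 NE in P and a log2 ratio of 0.62 (0.27 to 0.98); its 5p arm, and that of miR-30a, were not analysed here. In R the level of miR-30d-3p could not be told from that of miR-30e-3p (1.24%, 1.08% to 1.42%, and 1.28%, 1.11% to 1.46%, of the family's reads), whereas in P the shares were 1.06% (0.868% to 1.29%) and 2.57% (2.26% to 2.91%). The remaining names rest on few reads. hsa-miR-30c-2-3p had 49.0 NE in R and 36.1 NE in P (57 and 31 reads), and its log2 ratio of 0.44 (-0.21 to 1.12) was not separable from 0. hsa-miR-30c-1-3p had 31.8 NE in R and 16.3 NE in P (37 and 14 reads), and its ratio was 0.97 on the log2 scale (0.05 to 1.97). hsa-miR-30b-3p had 12.0 NE in R and 6.98 NE in P, from 14 reads and 6 reads, and its interval around a log2 ratio of 0.79 (-0.68 to 2.45) includes 0.

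On the deposited scale 0 of the 11 names lay past 2-fold in either direction, where 22.8% of the 438 tested names were past 2-fold higher in R and 16.4% past 2-fold lower. Higher in R were 7 of the 11, beside 50.9% of all tested names, and all 11 under 3 of the other scalings tried. The interval lay wholly above 0 for 5 names (26% of all tested) and wholly below 0 for 3 (25.6%), of which 2 are the miR-30e-5p names with 1 sequence. The median log2 ratio was 0.44 over the 11 names and 0.03 over all tested names. A call rule was built on the test that the study names, Fisher's exact test (two-sided). It set a miRNA's share of the clean reads in R against that in P and asked for a P-value under 0.05 after Benjamini-Hochberg adjustment, a step added here, together with a ratio past 2-fold on the deposited scale. The rule thus joins a test on the clean reads with a limit on another scale: 8 of the 11 names passed the test, beside 55.7% of all tested names, and 0 passed the limit. The rule called 109 of the 438 names (24.9%), and 120 (27.4%) without the adjustment, when 10 of the 11 passed the test (59.4% of all tested) and 0 were called. This test compares 2 libraries and has no replicate check.

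These counts depend on how the libraries are set against each other. With reads scaled to the clean reads the median log2 ratio of all tested names moved from 0.03 to 0.81; all 11 names were then higher in R (78.8% of all tested) and 7 were past 2-fold (44.5%). With the listed reads the median moved to 1.55, and 11 names were higher (92.5%) and 8 past 2-fold (71.9%). Without the most abundant name it moved to 1.10, and 11 names were higher (85.2%) and 7 past 2-fold (53.9%). Over all tested names 100 were past 2-fold higher and 72 lower on the deposited scale, against 195 and 30 with clean reads, 315 and 13 with listed reads, and 236 and 20 without the most abundant name. Relative to the median of all tested names, which takes the scaling out, the longer miR-30c form lay at 0.72, miR-30b at 0.67, miR-30a-3p at 0.25, miR-30e-5p at -0.67 and miR-30e-3p at -0.64. The 11 names therefore lay on both sides of the middle of the table and within 2-fold of it.

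**Figure D2:**
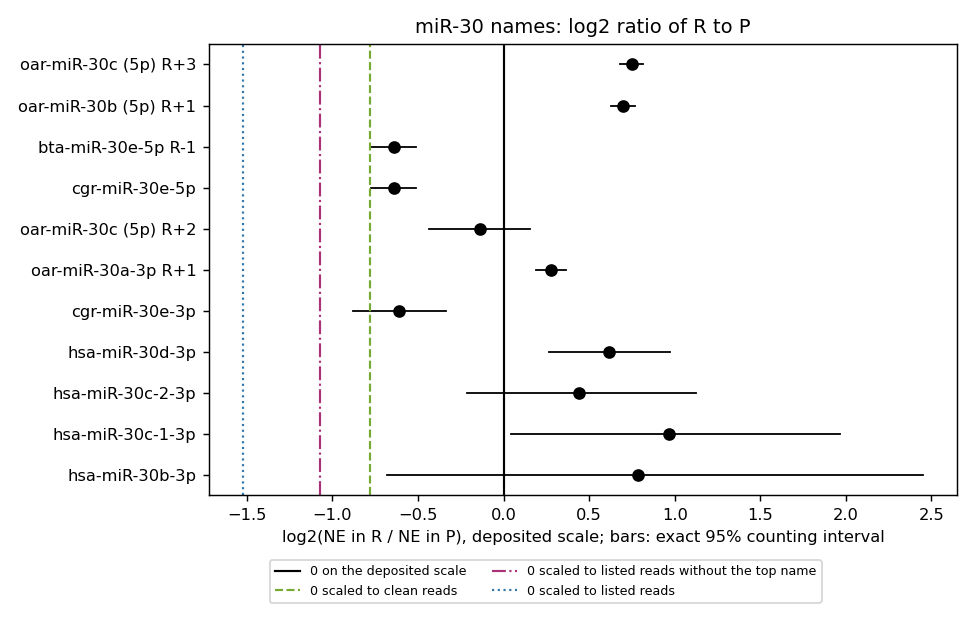
Log2 ratio of NE in R to NE in P for the 11 miR-30 names (points) with exact 95% counting intervals (bars); vertical lines show where 0 would lie on the deposited scale and when reads are scaled to the clean reads, to the listed reads, or to these without the most abundant name. The miR-30c R+3 form and miR-30b lie near 0.7 while miR-30e-5p and miR-30e-3p lie below 0 on the deposited scale and above it under the other 3 scalings.

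**Figure D3:**
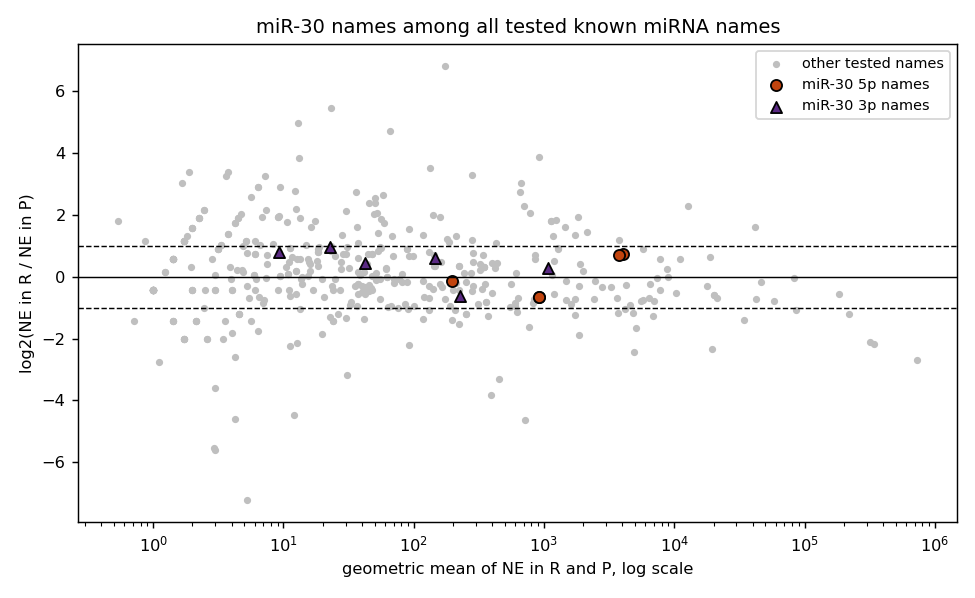
Log2 ratio of R to P on the deposited scale against the geometric mean of NE (log axis) for the 438 tested names, with miR-30 5p names as circles and 3p names as triangles; broken lines mark 2-fold and there is 1 library per phase. The miR-30 names lie between the broken lines, while 100 names lie above and 72 below.

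Summed over entries, which counts a divided read once, the family held 14489 NE in R and 10977 NE in P. This was 0.885% (0.872% to 0.898%) of the listed known reads in R and 0.233% (0.229% to 0.238%) in P. The share of the listed reads also moves with the other miRNAs, above all with miR-143, the most abundant name. The 5p arm held 11658 NE in R and 8557 NE in P, and its log2 ratio was 0.45 (0.41 to 0.49). The 3p arm held 2831 NE in R and 2420 NE in P, log2 ratio 0.23 (0.15 to 0.31). Both arms were higher in R on the deposited scale and under each of the 4 other scalings. The 2 sums do not cover the same members, because miR-30a and miR-30d enter the 3p sum only. The name miR-30a-3p made up 83.9% of the 3p reads in R and 81.1% in P. The 3p arm minus the 5p arm was -0.22 (-0.31 to -0.13) on the log2 scale, a small difference between unmatched sums that no scaling changes. It was -0.42 without the names listed only with a last base that differs, an alternative chosen after seeing the data. That alternative drops miR-30e-3p but keeps both miR-30a-3p entries, 1 of which has the same sequence, so the arms were not filtered alike.

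Taken hairpin by hairpin and by name, no difference between the arms was detectable, with wide intervals for miR-30b and miR-30c. The 3p minus 5p difference in log2 ratio was 0.09 (-1.38 to 1.76) for miR-30b, -0.08 (-0.61 to 0.47) for miR-30c and 0.03 (-0.25 to 0.32) for miR-30e. When the miR-30a-3p entries were counted as miR-30e-3p, whose sequence they have, the difference for miR-30e was 0.83 (0.71 to 0.96). The share of 3p reads in miR-30e was 11.2% (9.79% to 12.7%) in R and 10.9% (9.66% to 12.3%) in P by name. By sequence it was 63.5% (62.1% to 64.9%) in R and 49.4% (47.8% to 51.0%) in P. For comparison 3p reads were 0.251% (0.138% to 0.421%) of miR-30b and 1.47% (1.19% to 1.80%) of miR-30c in R. The listed sequences under the name miR-30a-3p are miR-30e-3p or a form of it, as given above. Goat hairpins were not compared, so the hairpin that these reads came from was not tested.

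The make-up of the analysed miR-30 reads differed between the libraries. These shares leave out the 5p arms of miR-30a and miR-30d, which were not analysed here. In R, miR-30c-5p made up 37.3% (36.6% to 38.1%) of the family's reads, miR-30b-5p 33.0% (32.3% to 33.7%), the name miR-30a-3p 16.4% (15.8% to 16.95%) and miR-30e-5p 10.2% (9.70% to 10.6%). In P, miR-30c-5p made up 30.2% (29.3% to 31.1%), miR-30b-5p 26.8% (25.9% to 27.7%), miR-30e-5p 20.9% (20.1% to 21.8%) and miR-30a-3p 17.9% (17.1% to 18.7%). With entries summed, miR-30e-5p thus stood below miR-30a-3p in R and above it in P; with each distinct sequence counted once, which keeps 1 of the 2 equal miR-30e-5p entries and both miR-30a-3p entries, it stood below in both, and with each name counted once, which keeps both miR-30e-5p names and 1 miR-30a-3p entry, above in both. All names of miR-30e held 11.4% (11.0% to 11.9%) in R and 23.5% (22.7% to 24.4%) in P, and with members taken by sequence 27.8% (27.1% to 28.5%) and 41.4% (40.4% to 42.4%). With each distinct sequence counted once miR-30e held 5.42% in R and 12.0% in P, a lower share by construction, since 1 miR-30e-5p entry and the miR-30e-3p entry, whose sequence stands under miR-30a-3p with a higher value, drop out. In each of these ways miR-30e took a smaller share of the family in R. The 3p arm held 19.5% (18.9% to 20.1%) in R and 22.0% (21.2% to 22.9%) in P, or 12.4% and 14.4% with each name counted once.

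**Figure D4:**
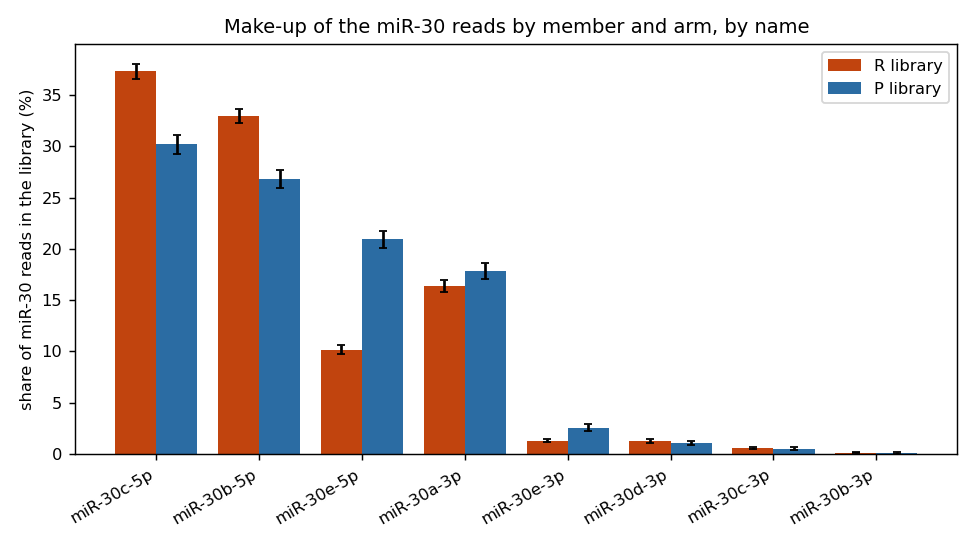
Share of the analysed miR-30 reads in each library held by each member and arm, by name, with exact 95% binomial intervals as error bars. Entries were summed. miR-30c-5p and miR-30b-5p have the taller bar in R (37.3% and 33.0%), and miR-30e-5p has the taller bar in P (20.9% against 10.2%).

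In the RefSeq annotation of the goat assembly ARS1.2 the genes MIR30C and MIR30E lie beside each other inside NFYC, which encodes a subunit of the transcription factor NF-Y, with 0 genes between them; MIR30B and MIR30D are neighbours, as are MIR30A and MIR30F. The neighbours miR-30c and miR-30e differed in their ratios, as given above, but miR-30e-5p differed from miR-30b-5p, which is not its neighbour, by a similar -1.34 (-1.46 to -1.22). A mature miR-30c-5p can come from more than 1 hairpin, which its sequence does not separate. The 3p arms do separate the hairpins, and hsa-miR-30c-1-3p minus hsa-miR-30c-2-3p was 0.52 (-0.65 to 1.73) on the log2 scale, not detectable as a difference with these reads. In the deposited comparison with other species, mir-30 precursors a to f were listed for 16 of 23 species. mir-30c was listed for 14 species, mir-30b for 13, mir-30e for 11, mir-30a and mir-30d for 10 each, and mir-30f for 2, cow and mouse. The deposited table of predicted targets holds 0 miR-30 names, so no predicted targets of the family are described.

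Other families with several abundant members were set beside miR-30 as sums. miR-29, which lowers collagens, had the nearest sum: 16139 NE in R and 11816 NE in P, log2 ratio 0.45 (0.41 to 0.48), and minus miR-30 0.05 (-0.00117 to 0.10). That sum is mostly ssc-miR-29a_L-1R-1 (13427 and 9021 NE, log2 ratio 0.57). The other miR-29 names summed to 2712 NE in R and 2795 NE in P, a log2 ratio of -0.04 that turned to 0.74 with clean reads and 1.48 with listed reads, where miR-30 without its own most abundant name was at 0.24 on the deposited scale. let-7 with miR-98 summed to 289140 NE in R and 422693 NE in P, log2 ratio -0.55 (-0.55 to -0.54), which turned to 0.24 with clean reads and 0.98 with listed reads. miR-26 summed to 202276 NE in R and 454841 NE in P, log2 ratio -1.17 (-1.18 to -1.16), -0.39 with clean reads and 0.35 with listed reads. Relative to miR-30, whatever the scaling, let-7 lay lower by a log2 difference of -0.95 (-0.99 to -0.91) and miR-26 by -1.57 (-1.61 to -1.53). The sums rest on 8 names for miR-29, 17 for let-7 and 8 for miR-26.

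miRNAs that mark the cell types of the uterine wall were counted in the same way, and their counts stand beside the 22.8% and 16.4% of all tested names past 2-fold higher and lower in R. Of the 16 names of epithelial miRNAs (miR-200a, miR-200c, miR-141, miR-429 and others), 13 were tested, and 12 of these were past 2-fold higher in R; their sum was 38573 NE in R and 6977 NE in P, led by hsa-miR-141-3p_R-1 (28337 and 5791 NE). In P 3 epithelial names were at 0, the lesser strands of miR-182, miR-183 and miR-203, with only 2, 1 and 5 reads in R. Of the 12 names past 2-fold, that of miR-205-3p rests on 3 reads in R and 1 in P. All 4 muscle names of the list (miR-1 and miR-133) were past 2-fold lower in R, with 292 NE in R and 7262 NE in P in all, led by oar-miR-133_L+1 (289.8 and 7116 NE over 2 entries). The miR-499a names stand outside this list. Of these, hsa-miR-499a-5p had 63.6 NE in R and 130 NE in P, log2 ratio -1.03. The other, hsa-miR-499a-3p_R+1, had 1 read in each library and was not past 2-fold (log2 ratio -0.44). Scaling to listed reads adds 1.52 to these ratios. Fibroblast or smooth muscle miRNAs (11 names, 4 past 2-fold lower and 0 higher) summed to 397679 NE in R and 1980919 NE in P, led by aja-miR-143_1ss22GT (289634 and 1866274 NE). That sum is mostly miR-143: the other names of the list summed to 108045 NE in R and 114644 NE in P, a log2 ratio of -0.09 that turned to 0.70 with clean reads and 1.44 with listed reads. The 4 names past 2-fold lower were those of miR-143 and miR-145, and no name of miR-199a, miR-199b or miR-214 was past 2-fold. Higher in R were 2 of the 11 names on the deposited scale (50.9% of all tested), 7 with clean reads (78.8%) and 8 with listed reads (92.5%). The epithelial sum was higher in R, and the sum of miR-1 and miR-133 lower, with clean and with listed reads too. Blood cell miRNAs summed to 19682 NE in R and 17053 NE in P over 11 names, led by cgr-miR-142-5p_L-2R+1 (11378 and 5047 NE over 2 entries); 2 of 9 tested names, those of miR-142-5p and miR-142-3p, were past 2-fold higher in R, a share near that of all tested names, and without miR-142-5p the sum was 8304 NE in R and 12006 NE in P, with a log2 ratio of -0.53 that turned to 0.25 with clean reads and 0.99 with listed reads. This list had 2 names at 0 in P, a miR-155-3p name and the only miR-223 name, each with 1 read in R. Of the 4 endothelial miR-126 names 0 were past 2-fold; they summed to 32862 NE in R and 21303 NE in P, led by hsa-miR-126-5p (23369 and 14955 NE). The part of these cell types in the miR-30 values was not tested, and fewer cells of a type and less of the miRNA per cell cannot be told apart in these pooled tissue libraries.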

How the data were processed

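The authors filtered the small RNA reads, matched them to miRBase and the goat genome, and deposited for each known miRNA a normalized signal per library (NE), the value used here. A further 2 columns of library values, in the table of candidates, were not used, because there the letters R and P stand over the other library's worth of a read. The letters of the known table were set beside those in the table of differential expression: values of all 371 shared known names were equal under the same letters within 0.006 NE, and its candidates above 0 gave whole reads of the library so lettered within 0.01 read (70 of 70 in R, 36 of 36 in P). The authors' fold change, log2 ratio and P-value in that table were not used. Species were counted from the precursor names listed beside the deposited count of precursors. From the table of candidates, only sequences were used.

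Reads were NE divided by the worth of 1 read. This worth was the largest step of which a set large share of the entries listed once are whole multiples. The share of whole reads among those entries is therefore no check of it. Among entries above 0 whose name and sequence are listed once, 90.2% of 418 in R and 90.4% of 396 in P gave whole reads within 0.001 read. Among those above 0 with repeated names these were 30.6% of 98 and 51.1% of 94. Entries were summed. Log2 ratios have Clopper-Pearson intervals, and differences exact conditional ones. Named were all members, family sums and the most abundant name of each marker list. Names at 0, the miR-142-3p name and the miR-499a names were named after their values were seen. Members and lists were chosen with earlier results of these data known. Alternatives were other scalings, ways to count entries, a pseudocount of 1 NE and a minimum of 10 reads. Intervals were tested on simulated data with independent reads, which does not cover reads copied by PCR or divided among entries. Python 3.11.15, numpy 2.4.6 and scipy 1.17.1 were used.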

Additional observations from a re-analysis of the deposited data

How the results depend on the processing

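The count of names past 2-fold, 0 as deposited, became 7 with reads scaled to clean reads, 8 with listed reads and 7 with listed reads without the most abundant name, and the count of names higher in R, 7 as deposited, became 11 under each of these 3. With the median log2 ratio set to 0, each distinct sequence or every entry counted, a pseudocount of 1 NE, or at least 10 reads in each library, the count past 2-fold was 0 and the count higher in R was 6 to 8. The log2 ratio of the 5p arm moved from 0.45 to 1.23, 1.97 and 1.52 under the same 3 scalings, and that of the 3p arm from 0.23 to 1.01, 1.75 and 1.30. With each sequence counted once, the arms were at 0.56 and 0.31. Without names listed only with a last base that differs, an alternative chosen after seeing the data, they were at 0.72 and 0.31, and 3p minus 5p moved from -0.22 to -0.42. The 3p value there keeps both miR-30a-3p entries, 1 of them with the differing last base, so the arms were not filtered alike.

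The ratio turned from lower to higher in R under clean reads, listed reads and listed reads without the most abundant name for both miR-30e-5p names (0.14, 0.88 and 0.43), for miR-30e-3p (0.17, 0.91 and 0.47) and for the shorter miR-30c form (0.64, 1.38 and 0.94). A scaling adds 1 number to every log2 ratio, which is the whole of this change.

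The 3p share was 12.4% in R and 14.4% in P with each name counted once. The miR-30e share was 12.4% and 25.8% with each name counted once, 5.42% and 12.0% with each sequence counted once, and 27.8% and 41.4% by sequence identity. Both differences, 3p minus 5p and miR-30e-5p minus miR-30c-5p, stayed within their intervals with each name or each sequence counted once. The call rule of Fisher's exact test with adjustment called 109 names, 118 with an exact binomial test on the deposited scale, and 120 with P-values not adjusted, an alternative chosen after seeing the data. No paired analysis was possible because each phase has 1 library. With 6 to 57 reads per library, the miR-30b-3p and miR-30c-3p names allow no statement on direction beyond their intervals.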

Other observations

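The miR-30 5p forms whose listed sequence ends in another base than the known or longer form (both miR-30e-5p names and the shorter miR-30c form) were grouped after their values were seen, so their sum only restates those values. Their log2 ratio was -0.59 and that of the other 5p forms 0.72 on the deposited scale, and the former turned to 0.19, 0.93 and 0.48 with clean reads, listed reads and listed reads without the most abundant name. The 3p arm could not be divided in this way, because the 2 entries named miR-30a-3p differ in the last base and carry 1 pooled value. Most of the 5p reads concerned are of miR-30e, so the member and its last base cannot be told apart.

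Across the rest of the table, 29 tested names outside miR-30 carry 1 substitution at the last base. Of these 17 were lower in R on the deposited scale and their median log2 ratio was -0.44, beside 194 of 398 names outside miR-30 without such a substitution and a median of 0.04. Among names with at least 10 reads in each library the numbers were 8 of 15 with a median of -0.31, beside 136 of 253 with a median of -0.07. The value -0.44 is also the ratio of 1 read to 1 read on this scale.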
